A study of Mustela putorius furo and Mus musculus with 4 samples.

Results

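The CUX2 BCL6 upper layer neurons are excitatory neurons of the developing ferret cortex at embryonic day 39 (E39) that were picked out of single-cell RNA sequencing data by the genes they express. Cells were chosen by their counts of unique molecular identifiers (UMIs, each the tag of 1 captured transcript). A cell was kept if it had at least 750 detected genes, a UMI in at least 3 of the 6 genes CUX2, BCL6, PRSS12, THSD7A, FIBCD1 and ANOS1, and 0 UMIs of EOMES, LHX6 and ADARB2. It also had to have fewer than 3 detected genes among RORB, PENK, INHBA, IGFBP3, FBN2 and LYPD6, and fewer than 3 among CA10, CLSTN2, SLC4A4, PTH1R, GRAMD1B and BDNF. This kept 2288 of the 23241 ferret cells with at least 750 genes (9.84%, exact binomial 95% interval 9.46 to 10.2), out of 41602 cells of ferret and mouse in the series. They are called CUX2 BCL6 cells here.

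The cells come from wild type E39 ferret cortex, for which the labels list 2 samples and the study's methods name 1 embryo, with the cortex of both hemispheres dissociated by papain. The mouse samples of the series enter only the cell total. They are E18 cortex labelled wild type, which the study describes as Smo F/F littermate control, and Smo CKO cortex. The ferret barcodes carry 1 of 2 suffixes, and no label says which sample a suffix stands for. They are given here as barcode set 1 and barcode set 2. The sets are parts of 1 animal and are not replicates. For that reason no test was made, every interval covers counting error only, and a value is read as higher or lower only where it was so in each set. Of the CUX2 BCL6 cells, 1266 were in set 1 (12.4% of its 10187 cells) and 1022 in set 2 (7.83% of its 13054 cells). Across the sets 38 barcodes are shared, none of them by a CUX2 BCL6 cell. The CUX2 BCL6 cells held 4220360 UMIs in set 1 and 4668307 in set 2, with a median of 3044 and 4208.5 UMIs per cell and of 1741 genes over both.

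Pyramidal neurons (PyNs) are the glutamatergic projection neurons of the cortex, and those born late settle in the upper layers, where most send axons to other cortical areas. CUX2 is a homeobox factor of upper layer neurons and their progenitors, and BCL6 is a transcriptional repressor that lets progenitors leave the Notch program and become neurons. Newborn PyNs first migrate through the cortical wall with guidance receptors such as UNC5D and NRP1 switched on, and then build axons, dendrites and synapses.

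The genes of the rule come first, as a description of what was chosen. THSD7A, which codes for a membrane protein with thrombospondin repeats, had a UMI in 90.6% of the CUX2 BCL6 cells and CUX2 in 87.1%, so these were shared by nearly all of them. BCL6 was detected in 62.8%, PRSS12 (a secreted serine protease, neurotrypsin) in 44.4%, ANOS1 (the extracellular matrix protein anosmin) in 35.3% and FIBCD1 (a membrane receptor with a fibrinogen domain) in 20.7%. The genes therefore mark different shares of the class, and the class is not a set of cells that express all of them. In interneuron cells, which have at least 3 of DLX1, DLX2, DLX5, DLX6, GAD1 and GAD2 and fewer than 2 of the PyN genes NEUROD2, NEUROD6, SLC17A6 and SLC17A7, with a median of 2783.5 UMIs against 3454 in the CUX2 BCL6 cells, THSD7A was detected in 53.7% and CUX2 in 29.9%, while BCL6 (2.66%), PRSS12 (0.635%), ANOS1 (1.9%) and FIBCD1 (0.381%) were rare. THSD7A and CUX2 were thus widespread outside PyNs, and the other 4 genes were close to absent from interneuron cells.

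Levels are given as CPM, counts per 1000000: the gene's UMIs, summed over the cells of a group, as a share of all UMIs of those cells. CUX2 stood at 449 CPM in set 1 and 567 in set 2, and THSD7A at 612 and 743. BCL6 went the other way, with 300.2 CPM in set 1 and 199.9 in set 2, as did ANOS1 (149 and 88.5) and FIBCD1 (78.4 and 41.6). PRSS12 was level between the sets at 153 and 149.7 CPM. RORB, a nuclear receptor of cortical neurons that receive thalamic input, whose list was limited to fewer than 3 genes, still had a UMI in 23.7% of the CUX2 BCL6 cells, against 85.0% of the RORB set defined further on.

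Most CUX2 BCL6 cells passed the rule narrowly. Exactly 3 of the 6 genes were detected in 1544 of them (67.5%), 4 in 576 (25.2%), 5 in 147 (6.42%) and all 6 in 21 (0.918%). The most frequent combination was CUX2, BCL6 and THSD7A alone, in 520 cells (22.7%), followed by CUX2, PRSS12 and THSD7A in 326 (14.2%). Among the 3336 cells with at least 3 of the 6 genes, 332 were barred for EOMES, LHX6 or ADARB2, and of the rest 296 had at least 3 genes of the RORB list and 437 at least 3 of the CA10 list. Just outside the threshold lay 3766 cells that met every other limit and had exactly 2 of the 6 genes. Their median depth was 2919.5 UMIs, against 3238.5 in the cells with exactly 3 genes and 3888.5 in the 744 cells with 4 or more. BCL6 was detected in 21.2% of the cells with 2 genes, 53.6% of those with 3 and 81.9% of those with 4 or more.

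Depth moves the membership. When every cell with at least 2000 UMIs was thinned to 2000 before the rule was applied, 6.41% of 18907 cells were kept, against 11.1% of the same cells without thinning. Of the 1212 cells kept after thinning, 1025 (84.6%) were CUX2 BCL6 cells, and these were 48.7% of the CUX2 BCL6 cells of that depth. The gap between the sets stayed, at 8.84% in set 1 and 4.85% in set 2.

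The 6 genes were found together more often than their separate shares give. In 10449 cells thinned to 2000 UMIs, taken as every cell with a UMI in at least 2 of the PyN genes NEUROD2, NEUROD6, SLC17A6 and SLC17A7 and none of EOMES, LHX6 and ADARB2, cells with both PRSS12 and ANOS1 were 1.99 times as many as the product of the 2 shares, and the ratio was 1.93 in set 1 and 1.74 in set 2. BCL6 with ANOS1 came to 1.73, BCL6 with FIBCD1 to 1.72 and BCL6 with PRSS12 to 1.67. The widely detected pair CUX2 and THSD7A came to 1.31, and THSD7A with ANOS1 to 1.14, the lowest of the 15 pairs. The 6 genes did not enter the choice of these 10449 cells. The list of 6 was however chosen with earlier results of these data known, so the ratios are a description.

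The label was checked against genes outside the rule. The PyN genes NEUROD2, NEUROD6, SLC17A6 and SLC17A7 code for 2 neurogenic factors and 2 vesicular glutamate transporters, and 1896 of the CUX2 BCL6 cells (82.9%) had a UMI in at least 2 of them. NEUROD6 was detected in 93.7% and NEUROD2 in 81.2% of the cells. GAD1, the enzyme that makes GABA, had a UMI in 1.01% of them. The interneuron cells were chosen on GAD1 and on few of the PyN genes, so they give no comparison for these genes.

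Markers of interneurons, glia, microglia, vessels and dividing cells were scarce, while the progenitor lists hold some genes that were widely detected. At least 2 of the 13 radial glia markers were detected in 1635 CUX2 BCL6 cells (71.5%; 66.6% of other PyNs) and at least 3 in 493 (21.5%; 20.98%). At least 2 of the 8 intermediate progenitor markers were detected in 743 (32.5%; 35.2%). In interneuron cells at least 2 radial glia markers were detected in 46.1% and at least 2 intermediate progenitor markers in 26.6%. Of the intermediate progenitor list, HES6 was at 275 CPM in set 1 and 335 in set 2 of the CUX2 BCL6 cells, and NEUROG1 at 0.948 and 1.5. At least 2 of the 14 interneuron markers were detected in 65 CUX2 BCL6 cells (2.84%), at least 2 of the 9 cycling markers in 75 (3.28%), and at least 2 markers of glial lineage cells in 18, of microglia in 3, of vascular cells in 7 and of Cajal-Retzius cells in 4. DLX6, CX3CR1 and LHX5 had a UMI in 0 of the 2288 cells, and taking 3 counts as the limit that a count of 0 allows, up to 0.131% of cells could hold a UMI of each. The radial glia markers summed to 6622 CPM in set 1 and 4972 in set 2, most of it FABP7, a fatty acid binding protein of radial glia that reached 6124 and 4383 CPM. FABP7 was detected in 99.9% of CUX2 BCL6 cells, but also in 71.4% of interneuron cells. PTPRZ1 of the same list was at 322 and 356 CPM in the CUX2 BCL6 cells, and VIM at 40.5 and 62.3. In radial glia cells, chosen on at least 6 genes of that list and with a median of 3843 UMIs, the list summed to 24772 and 20359 CPM. Doublets were not removed. A narrower count took cells with at least 2 markers of a single list: radial glia, cycling, interneuron, glial lineage, microglia or vascular. It left out FABP7, PTPRZ1, SST and ERBB4, and did not use the intermediate progenitor and Cajal-Retzius lists. By this count 224 CUX2 BCL6 cells (9.79%) carried markers of another type, close to the share among the other PyNs (10.8%).

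Genes outside the rule placed the CUX2 BCL6 cells near each other, but not apart from other PyNs. Each cell's 20 nearest neighbours were found from 30 principal components of 2000 variable genes with every gene of the rule left out. On average 31.9% of a CUX2 BCL6 cell's neighbours were CUX2 BCL6 cells (33.9% in set 1, 29.5% in set 2). Among all cells 9.84% were of the class (12.4% in set 1, 7.83% in set 2). In the other PyNs the mean was 10.7%, in the RORB set 12.8%, in the CA10 set 9.87% and in the migrating set 9.41%. For 25.04% of the CUX2 BCL6 cells at least 50% of the neighbours were of the class, and 5.73% had no such neighbour. With the cells thinned to 2000 UMIs the mean was 32.3%, against 11.1% among all cells of that depth. The neighbours were mostly of the same barcode set, 86.2% of them.

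**Figure D1:**
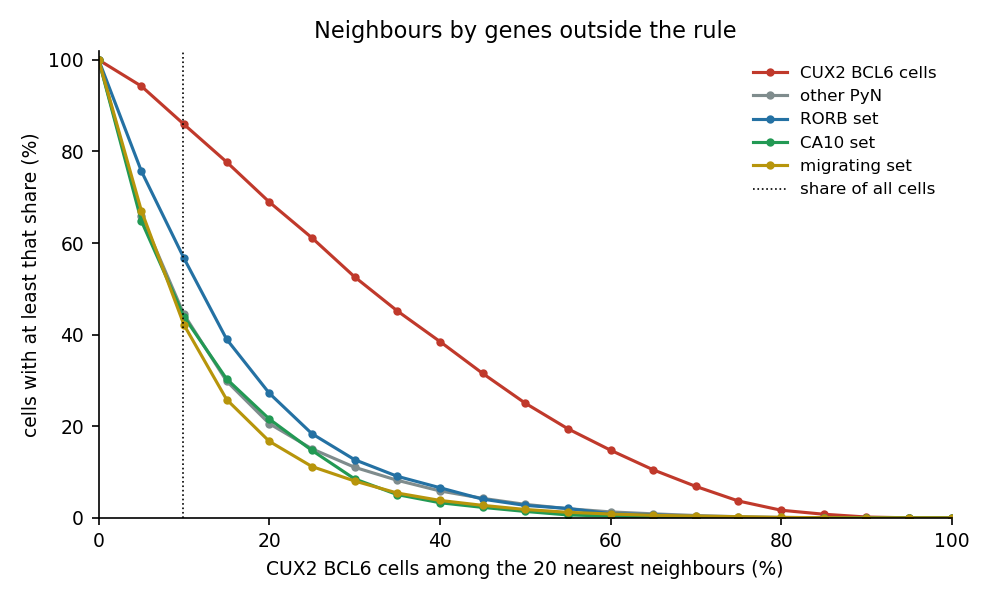
Share of cells (y axis, percent) with at least a given share of CUX2 BCL6 cells among their 20 nearest neighbours (x axis, percent), for each group; the dotted line marks the 9.84% of all cells that are CUX2 BCL6 cells. The curve of the CUX2 BCL6 cells lies above the other 4 at every share from 5% to 90%, with 25.04% of cells at a share of 50% or more.

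In 20 Leiden clusters of all ferret cells the CUX2 BCL6 cells were spread out. The cluster that held most of them took 820 (35.8%), and they were 44.7% of its 1836 cells. Its leading genes were PRSS12, BCL6, FIBCD1, ANOS1 and THSD7A, followed by DACT1, FAM89A, TRIM67, HS6ST2 and ZMAT4, none of which the rule uses. A further 372 (16.3%) lay in a cluster led by NRP1, UNC5D and GRIK1, 260 (11.4%) in one led by PENK and INHBA, 242 (10.6%) in one led by RASD1, STXBP6 and CA10, and 218 (9.53%) in one led by CRABP1 and SEMA3C. It took 7 clusters to hold 90% of them. The label of upper layer neurons thus rests on the marker genes, while by all other genes 35.8% of the cells share a cluster with leading genes of the rule. Cluster sizes are not results, because the sets differ in their clusters: 87.6% of the PENK and INHBA cluster was from set 1, and 7.14% of the RASD1 cluster.

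The CUX2 BCL6 cells were next compared with 8269 other PyNs, which have a UMI in at least 2 of the 4 PyN genes, fewer than 3 of the 6 genes, and the same limits otherwise. The group is a mixture, and 28.3% of them are also in the migrating set described later. Differences are given as the log2 ratio of CPM with 10 CPM added to each value, over genes that reached 20 UMIs in each set when the groups were added, and the genes used to form the groups are left out. By this measure 0 of 13171 genes (0%) were at least 2-fold higher in the CUX2 BCL6 cells in each set and 10 (0.0759%) at least 2-fold lower. At 1.5-fold there were 21 higher (0.159%) and 67 lower (0.509%). The median over all genes was 0.01 in each set. These counts depend on the pseudocount and on the barcode set: with 1 CPM added in place of 10 there were 6 higher and 61 lower, and with set 2 alone 7 and 52.

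The genes that stood highest were led by GRIA4, a subunit of AMPA-type glutamate receptors. GRIA4 reached 60.7 CPM in the CUX2 BCL6 cells and 27.0 in the other PyNs of set 1, and 45.4 and 11.3 in set 2, with ratios of CPM of 2.25 (95% interval 1.89 to 2.67) and 4.03 (3.33 to 4.88). Only 12.2% of CUX2 BCL6 cells had a GRIA4 UMI, against 4.81% of other PyNs, and the share was 42.6% in interneuron cells and 2.57% in radial glia cells. The zinc finger gene ZMAT4 was at 59.2 against 26.9 CPM in set 1 and 66.0 against 21.5 in set 2, and it was detected in 18.7% and 7.35% of cells, and in 2.16% of interneuron cells. Both genes lay above the other PyNs in each set with intervals of CPM that do not meet, but they were picked on these same values. HS6ST2, which adds sulfate groups to heparan sulfate chains, was at 199 against 108 CPM and 245 against 115, and was detected in 51.7% of CUX2 BCL6 cells. In most CUX2 BCL6 cells it could be seen, unlike GRIA4 and ZMAT4. The kinase gene SIK2 was at 100.2 against 51.2 CPM and 102 against 48.7.

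The other genes among the highest have different roles. ADGRL3, a latrophilin that binds adhesion partners across the synapse, was at 1408 (1373 to 1445) against 838 CPM in set 1 and 1547 against 898 in set 2, and was detected in 94.8% of cells. MDGA1, an adhesion protein known from upper layer neurons, was at 54.5 against 27.4 CPM and 43.9 against 18.5. KCNJ3, a subunit of G protein-gated potassium channels, was at 59.0 against 31.4 CPM and 62.5 against 34.1, and DLG1, a synaptic scaffold, at 141 against 84.6 and 121 against 69.0. For these 4 genes the ratios of CPM ran from 1.67 to 2.38 over the sets. DACT1, a regulator of Wnt signaling, was at 152 against 90.04 CPM and 141 against 65.0. TRIM67, a ubiquitin ligase of the axon, was at 115 against 60.9 CPM and 100.5 against 42.6. FAM89A was at 54.5 against 27.0 CPM and 40.5 against 16.2, and CCN2, a secreted matrix protein often used as a subplate marker, at 26.3 against 12.7 and 10.1 against 2.2. CCN2 was found in 4.33% of CUX2 BCL6 cells and 1.03% of radial glia cells.

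**Figure D2:**
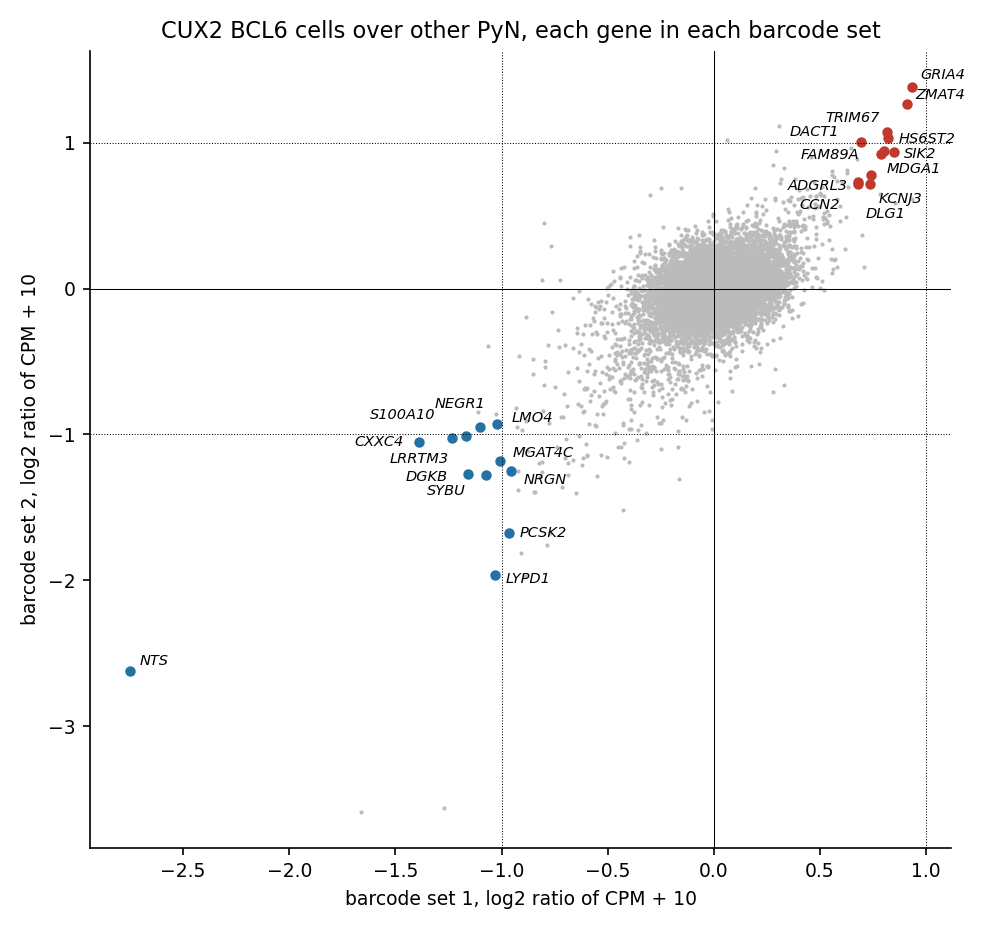
Log2 ratio of CPM (10 CPM added) in CUX2 BCL6 cells over other PyNs, in barcode set 1 (x axis) and barcode set 2 (y axis), 1 point per gene outside the rule; dotted lines mark 2-fold. The 12 highest named genes (red) lie between 0.68 and 1.38, and the 12 lowest (blue) reach -2.75 for NTS; no point lies past 2-fold higher in each set.

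The genes lowest in the CUX2 BCL6 cells were led by NTS, which codes for the peptide neurotensin. NTS was at 2.84 CPM against 76.5 in set 1 and 16.9 against 155 in set 2, a log2 difference of -2.75 and -2.62. NTS was detected in 1.75% of CUX2 BCL6 cells and 2.37% of other PyNs (1.01% and 1.71% at 2000 UMIs), and in 1.9% of interneuron cells. LYPD1, a modulator of acetylcholine receptors, was at 44.3 against 101 CPM and 47.1 against 212. S100A10, an annexin partner, was at 82.2 against 197 CPM and 128 against 269, and LMO4, a LIM domain factor that differs between cortical areas and layers, at 139.8 against 294 and 478 against 919.6. All 4 were lower in each set, and LMO4 was more than 3 times as high in set 2 as in set 1 in either group.

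Further genes among the lowest have different roles. NRGN, a calmodulin-binding protein of dendrites, was at 10.9 against 30.5 CPM and 25.9 against 75.6. LRRTM3, which organizes synapses from the postsynaptic side, was at 19.9 against 60.3 and 55.3 against 122. DGKB, a diacylglycerol kinase, was at 23.7 against 65.1 and 16.1 against 53.0. The proprotein convertase PCSK2, which cuts neuropeptide precursors, was at 28.7 against 65.5 and 15.0 against 69.8. SYBU, CXXC4, MGAT4C and NEGR1 had log2 differences between -0.95 and -1.39, with NEGR1, an adhesion protein of growing neurites, at 73.9 against 169.8 CPM and 165 against 328.

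Layer genes outside the rule lay on the side of the label by small margins. Of 15 upper layer genes compared, 10 were higher in the CUX2 BCL6 cells in each set and 1 was lower, where 32.5% and 28.9% of all genes were higher or lower in each set by any fold; the list's median difference was 0.18 in set 1 and 0.15 in set 2. RASGRF2, an exchange factor for small GTPases used as an upper layer marker, was at 253 against 155 CPM in set 1 and 417 against 220.2 in set 2. POU3F2, a POU homeodomain factor of upper layer neurons, was at 207 against 179 and 272 against 205. CUX1, the close relative of CUX2, was at 124 against 85.7 and 106 against 64.4. MEF2C, a factor of maturing upper layer neurons, was at 1472 against 1267 and 999 against 897, and only RASGRF2 and MDGA1 of the list passed 1.5-fold upward, LMO4 downward. LMO4 is the gene of the list that ran against the label. Of all genes 0.159% were at least 1.5-fold higher and 0.509% lower.

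Deep layer genes were lower. Of 13 compared, 11 were lower in each set and 2 higher, beside 28.9% and 32.5% of all genes. Of the 13, 6 were at least 1.5-fold lower, where 0.509% of all genes were. The median difference was -0.50 and -0.69. FEZF2, the factor that sets subcerebral projection identity, was at 11.4 (8.39 to 15.1) against 29.5 CPM in set 1 and 20.8 against 110.3 in set 2. It was detected in 4.15% of CUX2 BCL6 cells, 13.0% of other PyNs and 2.03% of interneuron cells. BCL11B, which acts downstream of FEZF2, was at 19.2 against 34.8 and 31.5 against 86.0. ZFPM2 was at 29.1 against 63.4 and 40.5 against 167, LDB2 at 50.9 against 90.04 and 93.8 against 257, and FOXP2 at 20.4 against 36.1 and 17.1 against 33.8. TLE4, a corepressor of corticothalamic neurons, was at 173 against 238 CPM and 179.9 against 288. It was detected in 38.5% of CUX2 BCL6 cells and 36.9% of other PyNs. These shares are not matched for depth, with a median of 3454 UMIs per cell against 3054. The exceptions were SOX5 and TBR1, with differences of 0.13 and 0.10, and 0.04 and 0.21. The rule sets no limit on deep layer genes in either group.

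**Figure D3:**
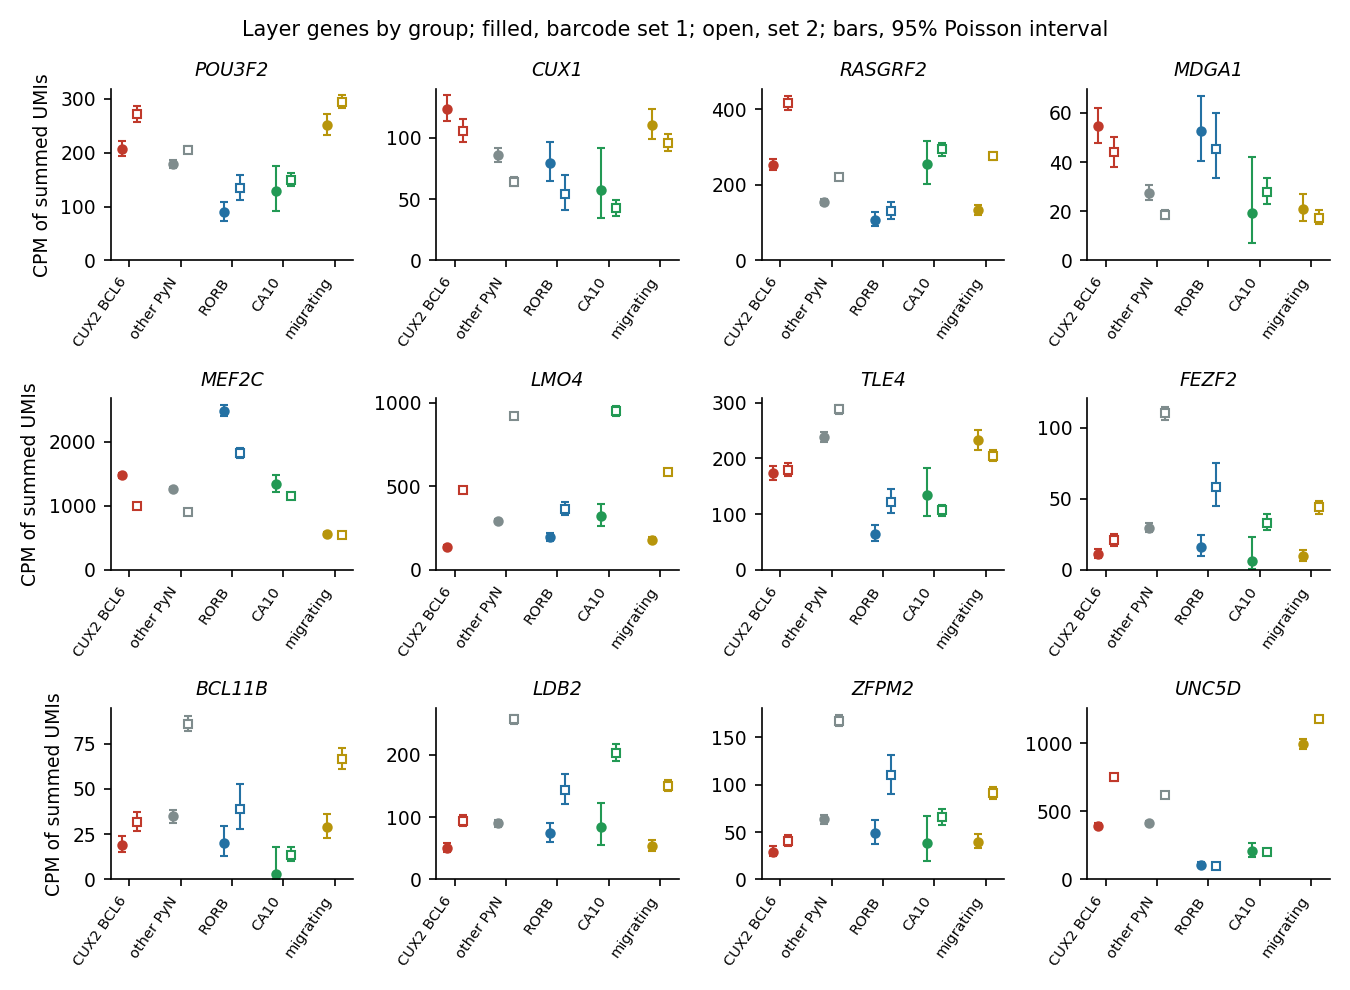
CPM of summed UMIs (y axis) of 12 genes in each group, barcode set 1 as filled circles and set 2 as open squares, with exact Poisson 95% intervals. RASGRF2 stands at 253 and 417 in the CUX2 BCL6 cells against 155 and 220.2 in the other PyNs, while FEZF2 stands at 11.4 and 20.8 against 29.5 and 110.3.

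Receptor genes leaned lower. Of 31 subunits of glutamate and GABA receptors compared with the other PyNs, 23 were lower in each set and 3 higher. Among all genes 28.9% were lower and 32.5% higher. But 1 subunit was at least 1.5-fold higher (GRIA4) and 1 at least 1.5-fold lower (GRIA3), where 0.159% and 0.509% of all genes were. The median difference was -0.19 and -0.36. GRIA2, the AMPA receptor subunit that blocks calcium entry, was at 417 against 508 CPM and 500.2 against 796, and GRIA3 at 41.7 against 69.0 and 54.2 against 105. The metabotropic receptor GRM5 was at 118 against 182 and 203 against 342. GRIA4 thus stood apart from the other AMPA receptor subunits in its direction.

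Genes of synapses and excitability were mixed, with 11 of 30 higher and 8 lower in each set. Beside the counts of this paragraph, 32.5% of all genes were higher and 28.9% lower in each set by any fold. At 1.5-fold these shares were 0.159% and 0.509%. CAMK4, a calcium-dependent kinase of the nucleus, was at 108 against 55.02 CPM and 81.6 against 51.0, and with KCNJ3 it made up the 2 genes past 1.5-fold higher; NRGN was the 1 past it lower. Of 18 cadherins and protocadherins 10 were lower in each set and 4 higher, with PCDH17 at 32.0 against 61.6 and 47.1 against 173 and CDH8 at 27.5 against 55.02 and 82.0 against 120. CDH4 was the clearest exception, at 54.0 against 42.2 and 104 against 49.3. Axon guidance genes divided much as all genes did, 13 of 40 higher and 12 lower. ROBO2, a receptor for the repellent SLIT proteins, was at 775 against 1482 CPM and 781 against 1519, and EPHA6, an ephrin receptor, at 94.5 against 188 and 96.6 against 243. Those were the 2 guidance genes at least 1.5-fold lower. PLXNA4, a semaphorin coreceptor, was at 192 against 152 and 321 against 186.

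Among the remaining lists, both Cajal-Retzius genes compared were lower in each set, RELN at 17.5 against 49.4 CPM and 22.5 against 48.3 and CALB2 at 2.61 against 5.37 and 6.43 against 17.2, and all 4 microglia genes compared were lower. Of 16 Notch genes 4 were higher and 5 lower in each set, and of 15 BMP genes 8 were higher and 3 lower, none of either list by 1.5-fold. Of all genes 32.5% were higher and 28.9% lower in each set by any fold, beside every count of this paragraph. BMPR2, a type II BMP receptor, was at 224 against 186 CPM and 272 against 226. Of 8 immediate early genes, which report recent activity or handling of cells, 4 were higher and 2 lower, with FOS at 59.5 against 36.0 and 64.5 against 40.3 and IER2 at 98.6 against 74.5 and 111 against 68.3. Of 5 stress genes 2 were higher and 1 lower.

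The RORB set is a further 441 cells with at least 3 of the 6 genes of the RORB list, fewer than 3 of the 6 genes and of the CA10 list, and none of the barred genes. These cells were deeper sequenced, with a median of 4744 UMIs. Of 10943 genes, 67 (0.612%) were at least 2-fold higher in the CUX2 BCL6 cells in each set and 88 (0.804%) at least 2-fold lower, more in either direction than against the other PyNs. The RORB set is however small, and the other PyNs are a mixture. PDE1C, a calcium-dependent phosphodiesterase, was at 402 against 63.6 CPM in set 1 and 441 against 84.1 in set 2, and was detected in 63.2% of CUX2 BCL6 cells and 19.5% of the RORB set. PLXNA2, a coreceptor for semaphorins, was at 212 against 38.9 and 308 against 69.0. SEMA3C, a secreted semaphorin, was at 185 against 37.3 and 232 against 34.0.

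Other genes well above the RORB set were DPY19L1 at 199 against 42.9 CPM and 327 against 41.6, EZR, which links actin to the membrane, at 104 against 19.1 and 120.4 against 21.7, and PID1 at 275 against 65.2 and 329 against 37.8. IGFBPL1, a gene of young neurons, was at 139.8 against 30.2 and 229 against 44.4. Lower were EFNA5, an ephrin that repels axons, at 57.8 against 278 CPM and 43.5 against 386, and GRM5 at 118 against 453 and 203 against 674. EFNA5 was detected in 12.6% of CUX2 BCL6 cells and 62.1% of the RORB set, and at 2000 UMIs per cell in 7.45% and 39.8%. For PDE1C the shares were 63.2% and 19.5% at full depth, and 49.3% and 10.96% at 2000 UMIs. For GRM5 they were 26.4% and 74.8%, and 17.9% and 54.3%. B2M, the light chain of MHC class I, was at 20.6 against 111 and 17.6 against 104. NWD2, FRMPD4, CSMD3, NR3C2 and CUNH11orf87 had log2 differences between -1.69 and -3.27.

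Guidance genes were then compared with the RORB set as a list. Of 37, 7 were at least 2-fold higher in the CUX2 BCL6 cells and 2 lower (EFNA5 and SEMA3E), beside 0.612% and 0.804% of all genes. By any fold 23 were higher and 11 lower in each set, beside 40.7% and 27.1% of all genes. The median difference was 0.13 and 0.24. UNC5D, the netrin receptor of migrating neurons, was at 394 against 109.7 CPM and 751 against 96.4. SLIT2 was at 44.5 against 5.56 and 94.3 against 22.7, DCC at 304 against 130.3 and 458 against 100.1, SEMA3A at 61.4 against 15.9 and 87.0 against 21.7, and EPHB1 at 160 against 56.4 and 250 against 101. All of them were higher in each set. MEIS2, a homeobox factor that differs between frontal and sensory cortex, was at 352 against 95.4 and 947 against 177, and BCL11A at 707 against 346 and 634 against 214. RORA, a nuclear receptor related to RORB, was lower at 44.5 against 188 and 79.5 against 231. Among 18 cadherins 3 were at least 2-fold lower and 1 higher, beside 0.804% and 0.612% of all genes. CDH9 stood at 18.0 against 60.4 and 26.1 against 84.1. Of 14 upper layer genes 5 were at least 1.5-fold higher than in the RORB set (POU3F2, POU3F3, RASGRF2, ID2 and EPHA3) and 2 lower (POU3F1 and MEF2C), where 2.46% and 2.31% of all genes were. RASGRF2 was at 253 against 107 and 417 against 131, and MEF2C at 1472 against 2479 and 999 against 1817. Of 12 deep layer genes 3 were higher and 6 lower in each set, with a median difference of 0.02 and -0.42. GRIA4, high against the other PyNs, was lower than in the RORB set, at 60.7 against 126 and 45.4 against 159. Of 29 receptor genes 1 was at least 2-fold higher and 2 lower, beside 0.612% and 0.804% of all genes. The higher was GRIK1, a kainate receptor subunit, at 44.1 against 4.77 and 58.1 against 9.45.

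**Figure D4:**
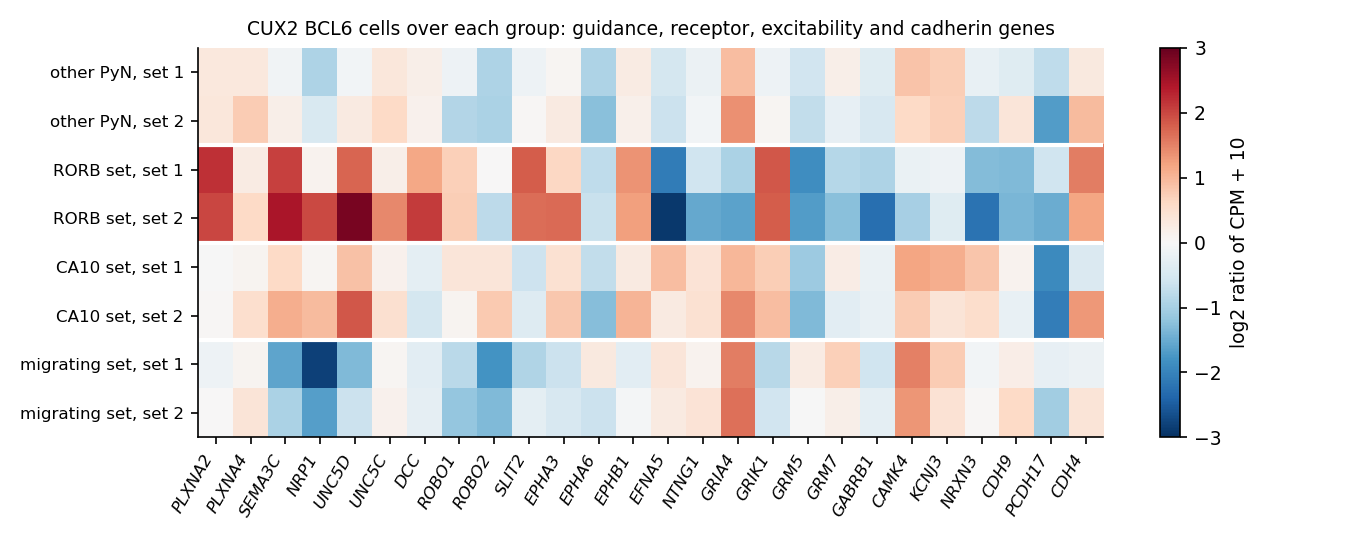
Log2 ratio of CPM (10 CPM added; color scale) of CUX2 BCL6 cells over each group in each barcode set (rows), for 26 genes of the guidance, receptor, excitability and cadherin lists (columns), chosen after their values were seen. Against the RORB set PLXNA2, SEMA3C, UNC5D and GRIK1 are higher and EFNA5 lower, while GRIA4 is lower against the RORB set only.

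The CA10 set is 788 cells with at least 3 of CA10, CLSTN2, SLC4A4, PTH1R, GRAMD1B and BDNF and the same limits on the other lists. Only 87 of them were in set 1, and their median depth was 5368.5 UMIs. Of 10686 genes 8 (0.0749%) were at least 2-fold higher in the CUX2 BCL6 cells in each set and 20 (0.187%) lower. S100A10 was lower by the widest margin, at 82.2 against 697 CPM in set 1 and 128 against 593 in set 2, and in 17.9% against 58.2% of cells. PCDH17 was at 32.0 against 148 and 47.1 against 231, and COL24A1, a collagen gene, at 45.3 against 206 and 123 against 434. STXBP6, RASD1, PREX2, LRRTM3 and CTNNA3 had log2 differences between -1.30 and -1.74. Higher were CTNNB1, which codes for β-catenin, at 211 against 73.9 and 164 against 56.2, and CUX1 at 124 against 57.8 and 106 against 42.6, a log2 difference of 0.98 and 1.14. GRIA4 was at 60.7 against 25.7 and 45.4 against 10.4, with wide intervals of the ratio in set 1 (1.18 to 5.53). KCNK2, a leak potassium channel, was at 101 against 41.8 and 116 against 35.9, and TBL1X, DLG1, CLIC1 and VAV3 were higher by 1.00 to 1.51 on the log2 scale. In set 1 these rest on few UMIs of the CA10 set, 18 of DLG1, 16 of CLIC1 and 13 of KCNK2. TBL1X and VAV3 had 5 each, with intervals of the ratio of 1.27 to 9.37 and 1.12 to 8.28. Of 14 upper layer genes 9 were higher and 2 lower in each set, beside 34.4% and 22.5% of all genes. Deep layer genes did not run opposite to them here, with 6 of 12 higher and 2 lower in each set and a median difference of 0.26 and 0.24. Of 27 receptor genes 2 were at least 1.5-fold higher (GRIA4 and GRIK1) and 3 lower (GRIA1, GRIN3A and GRM5), where 0.898% and 0.814% of all genes were.

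The migrating set is 3232 cells with at least 3 of UNC5D, RND2, NRP1, SEMA3C, NEUROD1 and TIAM2 and the same limits on the other lists, with a median of 2875 UMIs; 2344 of them (72.5%) are also among the other PyNs. Of 11796 genes 4 (0.0339%) were at least 2-fold higher in the CUX2 BCL6 cells in each set and 21 (0.178%) lower. The genes higher in the CUX2 BCL6 cells were GRIA4 at 60.7 against 14.5 CPM and 45.4 against 7.62, TRIM67 at 115 against 33.3 and 100.5 against 31.7, CAMK4 at 108 against 31.5 and 81.6 against 26.3, and FAM89A at 54.5 against 19.5 and 40.5 against 13.7. SYT4, a vesicle protein, was at 318 against 154 and 406 against 217 and was detected in 57.0% of CUX2 BCL6 cells against 29.0%. MEF2C was at 1472 against 559.6 and 999 against 545. The lower genes were NRN1, a secreted factor for neurite growth, at 49.996 against 253 and 75.6 against 234, NEGR1 at 73.9 against 383 and 165 against 486, and ROBO2 at 775 against 2700.4 and 781 against 1981. CCSER1, IL1RAPL1, RASGEF1B, TMTC2 and TEAD1 had log2 differences between -1.12 and -1.65.

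Against the migrating set most genes of the deep layer and intermediate progenitor lists were lower. Of 12 radial glia genes 6 were lower and 0 higher in each set, of 6 intermediate progenitor genes 5 were lower and 1 higher, and of 13 deep layer genes 11 were lower and 0 higher, beside 38.3% and 29.7% of all genes; none of the radial glia or deep layer genes passed 1.5-fold. The median difference was -0.26 and -0.28 for the deep layer list and -0.67 and -0.54 for intermediate progenitors, while the radial glia list had -0.61 in set 1 and 0.00 in set 2, so that its median was lower in set 1 alone. ID4, an inhibitor of neurogenic factors, was at 251 against 429 CPM and 350.2 against 444. The radial glia list summed to 6622 and 4972 CPM in the CUX2 BCL6 cells and 8904 and 6021 in the migrating set, and the part of radial glia RNA in these differences was not tested. Among immediate early genes FOS (59.5 against 28.0 and 64.5 against 33.2), EGR1 (41.0 against 17.0 and 40.3 against 22.6) and IER2 (98.6 against 57.8 and 111 against 63.4) were at least 1.5-fold higher in the CUX2 BCL6 cells and JUN (18.2 against 40.4 and 30.2 against 58.6) lower, where 0.466% of all genes were higher and 0.949% lower by that fold.

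Among themselves, the 2104 CUX2 BCL6 cells with at least 2000 UMIs varied along a component with migration genes, among others, at its high end. The first principal component of thinned counts, with the genes of the rule left out, held 1.03% of the variance. Its top loadings were MEIS2, UNC5D, CCSER1, DSCAM, ROBO2, CNTN5, FRMD4B and NEGR1. In the 526 cells highest on it, MEIS2 was at 1657 CPM and UNC5D at 1430, against 134 and 133 in the 526 lowest, and ROBO2 was at 1837 against 358. The list of migrating neuron genes summed to 2314 against 374 CPM. Other lists were also higher there, such as cycling (237 against 65.0), BMP (1676 against 745) and cortical area genes (5127 against 2584). Lists that were lower there included immediate early genes (209 against 375). The parts of the number of genes detected and of the barcode set in this component were not tested. At the low end were FABP3 (68.6 CPM in the highest cells and 511 in the lowest), the neurofilament gene NEFM (29.0 and 228) and SYT4 (176 and 434), with ABRACL, GPX4, CTXN1, NDUFB1 and NDUFAF8. The score ran with the number of genes detected at equal UMIs (r = 0.68 over the 2104 cells, which share 1 animal) and differed between the sets, with a mean of -1.69 in set 1 and 1.93 in set 2 against an SD of 4.43.

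The second component, with 0.671% of the variance, ran with depth before thinning (r = 0.54 over the same cells). Its high end held GRM5 (363 CPM in the 526 highest cells against 27.7 in the 526 lowest), the lipoprotein receptor gene LRP1B (366 and 12.4), LMO4 (688 and 91.5), CDH8 (139.8 and 8.85) and COL24A1 (213 and 4.72), with CSMD3, OPCML and NCAM2. The receptor list summed to 3079 against 1324 CPM and the synapse list to 7315 against 4318. Its low end held PDE1C, CLIC1, UNC5D, PHLDA1, IGFBP7, PID1, SEMA3C and KCNK2. The third component, with 0.617%, had radial glia genes at its high end, among them SLC1A3 (85.5 and 1.22 CPM), HOPX, VIM (186 and 10.1) and SOX2, with SOX6, ACBD7, PON2 and PLPP3. SLC1A3, a glutamate transporter of radial glia, was detected in 8.56% of the 526 highest cells and 0.57% of the lowest. A small part of the cells thus carried it. The radial glia list summed to 8284 against 4126 CPM, a sum that includes the widely detected FABP7. The low end of the third component held RUNX1T1, RASGRF2, UNC5C, FLRT2, CHL1, ANK3, PDE4D and PTPRO. The part of radial glia RNA in this component was not tested.

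BCL6 split the class without a sharp border. The 1436 CUX2 BCL6 cells with a BCL6 UMI had a median of 3636 UMIs and the 852 without had 3156. Of 10366 genes none was 2-fold higher or lower between them in each set (0%), 9 were at least 1.5-fold higher with BCL6 (0.0868%) and 10 lower (0.0965%). ROBO2 was at 599 CPM with BCL6 and 1138 without in set 1, and 510.2 and 1276 in set 2. NRP1, the semaphorin receptor, was at 10.2 and 21.03, and 39.7 and 84.4, SLIT2 at 34.8 and 64.6, and 70.2 and 138, and UNC5D at 335 and 516, and 570.4 and 1081. Cells with BCL6 were thus lower in genes of guidance and migration, and of 36 guidance genes 19 were lower and 6 higher in each set, beside 30% and 26.1% of all genes. CCSER1, KCTD16 and KLHL35 were lower as well, by 0.72 to 0.92 on the log2 scale. Higher with BCL6 were the muscarinic receptor CHRM3, at 57.4 and 26.1 CPM in set 1 and 109 and 59.5 in set 2, COL24A1 at 54.5 and 26.1, and 144 and 84.4, and GRIA4 at 70.0 and 41.3, and 55.9 and 26.1. MEF2C was at 1570 and 1271, and 1149 and 723. UBE2C, CCNB1 and PTTG1, genes of cell division, were also among the highest, and UBE2C was detected in 2.92% of the cells with BCL6 and 1.88% of those without. The rule itself makes cells without BCL6 richer in its other genes, as in PRSS12 at 126 and 209.6 CPM in set 1.

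Cells with 4 or more of the 6 genes differed little from those with exactly 3. No gene was 2-fold higher or lower in each set (0%), 1 was at least 1.5-fold higher (0.00965%) and 7 lower (0.0675%). NRP1 was at 6.95 CPM with 4 or more and 17.3 with 3 in set 1, and 25.7 and 74.0 in set 2, NEUROG2, a neurogenic factor of progenitors, at 22.2 and 38.8, and 36.9 and 61.5, and MEIS2 at 265 and 398, and 662 and 1124. CAMK4 was higher with 4 or more, at 133 and 94.2, and 121 and 57.0. Of 36 guidance genes 15 were lower and 5 higher in each set, beside 29% and 24.6% of all genes. The cells with 4 or more genes were also the deeper ones.

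The barcode sets differed inside the class. Of 12232 genes 43 (0.352%) were at least 2-fold higher in set 2 than in set 1 in the CUX2 BCL6 cells and 9 (0.0736%) lower. In the other PyNs all 43 had the same direction and 29 passed 2-fold, and all 9 had the same direction and 6 passed. LMO4 was at 139.8 CPM in set 1 and 478 in set 2, a log2 difference of 1.70, and 1.61 in the other PyNs. MEIS2 was at 352 and 947 (1.40, and 1.11 in the other PyNs), UNC5C at 60.4 and 154, CDH8 at 27.5 and 82.0 and GRIA1 at 43.8 and 112. PENK, which codes for the opioid precursor proenkephalin, was at 44.3 in set 1 and 4.93 in set 2. These differences between the sets cannot be told apart from how the cells were divided into libraries, which the column names do not show.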

How the data were processed

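Single cells of E39 ferret cortex were profiled by droplet RNA sequencing. The authors deposited a table of UMI counts per gene and cell, used here as deposited. The submitters' processing notes name Cell Ranger, StringTie and Seurat 3, and the ferret genome build is not given in the sources used here. The table holds 22008 genes and 86935280 UMIs, and 21910 of its gene symbols were found in the RefSeq table of ferret genes. Columns carry a barcode and a set suffix, which names no sample.

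The members and gene lists were chosen with earlier results of these data known. Counts were summed per group and barcode set. CPM, shares and ratios carry exact Poisson, Clopper-Pearson and conditional binomial 95% intervals, for counting error only. Log2 ratios used 10 CPM as pseudocount and genes with at least 20 UMIs in both groups together in each set, and a gene was counted when it passed 2-fold (or 1.5-fold) in the same direction in each set. Of 352 list genes 336 were in the table. Genes named were the 12 highest and 12 lowest by the smaller of the 2 set ratios against the other PyNs, 8 and 8 for each other set, 6 and 6 for BCL6 and 8 and 8 loadings per component, outside the rule and named by more than an identifier, together with list genes picked after their values were seen. Interneuron cells had at least 3 of 6 DLX and GAD genes and fewer than 2 of the PyN genes, and radial glia cells at least 6 radial glia markers, none of those 6 genes and fewer than 2 of the PyN genes. Neighbours came from log-normalized counts (2000 variable genes, 30 components, 20 neighbours, Leiden resolution 1; leidenalg 0.10.2). Scripts used python 3.11.15, numpy 2.4.6, scipy 1.17.1 and pandas 2.3.3, and were tested on simulated data. With 1 embryo no test was possible. Doublets were not removed. Mouse samples were not analysed here beyond their number of cells.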

Additional observations from a re-analysis of the deposited data

How the results depend on the processing

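All values come from 1 animal, so the alternatives show how counts move with the settings and not how they would vary between ferrets. No paired analysis was possible because no result comes from a test and the ferret cells form 1 group. The share of CUX2 BCL6 cells (9.84%) became 10.5% with at least 1000 genes per cell, 3.2% with at least 4 of the 6 genes, 26.0% with at least 2, 6.41% when cells were thinned before the rule, 10.8% without the barred genes, and 12.2% without cells that carried markers of other types; the barcode sets alone gave 7.83% to 12.4%. Genes at least 2-fold higher than in the other PyNs (0) became 6 with a pseudocount of 1 CPM, 4 with at least 4 of the 6 genes, 20 against cells with none of the 6, and 21 at 1.5-fold, with 0 to 7 when 1 set was left out. Genes lower (10) became 61, 25, 44 and 67 in the same order, 6 with the mean of each cell's CPM, and 15 to 52. Against the RORB set the 67 higher became 193 with 1 CPM, 103 thinned, 160 against none of the 6 and 269 at 1.5-fold, with 87 to 174 for single sets, and the 88 lower became 183 with 1 CPM and 253 at 1.5-fold, with 118 to 200. Against the CA10 set the 8 higher became 69 with 1 CPM, 15 thinned, 14 with at least 4 genes, 65 against none, 13 without cells carrying other markers and 96 at 1.5-fold, with 56 to 164, and the 20 lower became 46 with 1 CPM, 31 with at least 4, 45 against none and 87 at 1.5-fold, with 52 to 66. Against the migrating set the 4 higher became 17 with 1 CPM, 14 with at least 4, 9 with the mean of each cell's CPM, 14 against none, 7 without cells carrying other markers and 55 at 1.5-fold, with 7 to 24, and the 21 lower became 82 with 1 CPM, 51 with at least 4 and 112 at 1.5-fold, with 29 to 97. The settings without cells of other markers and at 1.5-fold, and the thinned neighbourhood, were chosen after seeing the data. The cause of these moves was not tested. Of the alternative values, 53 stayed within the limits of the main value and 53 moved. Of the 72 named comparisons 71 kept their direction in all 8 settings tried, and NR3C2 against the RORB set did so in 7. These genes were picked for their extreme ratios, and the settings reuse the same animal and mostly the same cells. A change of pseudocount cannot change a direction. The agreement was thus largely set by the choice and is no support for the genes.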
